A study of Mus musculus with 26 samples.

Results

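The genes described here act in mitosis: they drive entry into cell division, build the spindle, attach and separate chromosomes, and cut the daughter cells apart. They are 39 mouse genes chosen by name, and 38 of them were read on these arrays, out of 17097 genes in all. Nuf2, a subunit of the outer kinetochore, was not analysed here. Each gene was read by its brightest probe set with a single gene symbol, meaning the one with the highest mean over the 26 arrays, and all levels below are log2 intensities as deposited.

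The study concerned Group3 medulloblastoma, an aggressive childhood tumor of the cerebellum, in a mouse model, and the drugs pemetrexed, an antifolate, and gemcitabine, a deoxycytidine analog. RNA came from tumors and from neurospheres, which are cells grown as floating spheres. Every array came from C57BL/6 material with the genotype Trp53-/-, Cdkn2c-/-, so no group had intact copies of either tumor suppressor. The titles carry a code, dka or mmm, and groups were compared within a code.

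Under the code dka there were 3 Group3 tumors, 3 Group3 secondary tumors and 3 Group3 neurospheres, all with Myc in the genotype label, and 3 Trp53 Cdkn2c neurospheres without it, which the labels call granule neural progenitors. The design text gives the age P7 for these last neurospheres. Under the code mmm there were 3 Group3 tumors treated with pemetrexed and gemcitabine together, 2 treated with pemetrexed, 3 treated with gemcitabine, 2 untreated, and 4 Group3 neurospheres. Dose, duration, host animal and what makes a tumor secondary are not given in the sources used here. Nothing in the labels ties an array to its own animal or culture. The p-values therefore measure only the spread between these arrays, which may be technical.

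Entry into mitosis is driven by the kinase CDK1 with cyclin A and cyclin B. Aurora and Polo kinases then shape the spindle, the spindle checkpoint delays anaphase until every kinetochore is attached, and the anaphase promoting complex with CDC20 releases separase to split the chromosomes. Most of these genes are transcribed in G2 and M phase: the DREAM complex represses them in resting cells, and MuvB with B-MYB and FOXM1 activates them later, largely through a promoter element called the CHR (cell cycle genes homology region) and through CCAAT boxes bound by NF-Y. Their RNA is widely used as a measure of proliferation in tumors.

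The promoters of the member genes held these elements far more often than promoters at large. RefSeq promoter windows (GRCm38.p6, 250 bases before to 50 bases after each start) matched 32 member genes with 34 promoters. The letters TTTGAA or TTTAAA, the usual forms of the CHR, stood on either strand in 28 of the 34 windows (82.4%), against 27.6% of all 32851 windows of the same length. CCAAT on either strand was found in 26 (76.5%), against 37.4% of all, and at least 2 copies in 17 (50%), against 11.7%. Both elements together were found in 24 (70.6%), against 10.7%. The letters CACGTG, the form of the E-box that MYC and MAX bind, were found in 3 (8.82%), against 7.15%. A match is a description of the letters and not a site.

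Promoters are shown for 4 members, the 120 bases just before the start, picked after their values were seen: Top2a, Espl1 and Cdk1 were lower in untreated mmm tumors than in neurospheres, and Ube2c was not. Capitals mark TTTGAA or TTTAAA and CCAAT, read on either strand (TTCAAA and ATTGG on the other).
Top2a, chr11:99024190-99024309, minus strand: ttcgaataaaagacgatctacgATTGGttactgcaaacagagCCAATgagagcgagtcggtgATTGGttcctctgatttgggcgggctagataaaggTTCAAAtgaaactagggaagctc
Espl1, chr15:102296173-102296292, plus strand: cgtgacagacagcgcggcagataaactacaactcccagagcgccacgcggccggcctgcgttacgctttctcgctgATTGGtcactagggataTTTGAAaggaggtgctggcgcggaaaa
Cdk1, chr10:69352913-69353032, minus strand: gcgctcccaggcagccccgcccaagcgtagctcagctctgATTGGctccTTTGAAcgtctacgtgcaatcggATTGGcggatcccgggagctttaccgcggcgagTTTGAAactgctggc
Ube2c, chr2:164769809-164769928, plus strand: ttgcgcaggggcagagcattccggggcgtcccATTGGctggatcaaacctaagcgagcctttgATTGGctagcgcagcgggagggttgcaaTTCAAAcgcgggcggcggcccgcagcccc

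The 4 sequences share the arrangement of 1 or more CCAAT boxes upstream of a CHR close to the start. The elements were common among members whatever their values did: TTTGAA or TTTAAA was present in 14 of 15 promoters (93.3%) of members that were lower in untreated mmm tumors, and in 14 of 18 promoters (77.8%) of measured members that were not called there.

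The member genes averaged well above the middle of the arrays in every group. Array medians over all probe sets, also those without a gene, lay between 4.65 and 4.82. At most 1 of the 38 members was below its array's median, on the 2 untreated tumors and 1 gemcitabine tumor of code mmm. Members were read by their brightest probe set, which by itself places them higher in such a comparison. Values spanned 2.56 to 13.86 on the dka arrays and reached from -0.41 to 16.11 on the mmm arrays other than neurosphere 4, and how the values of the codes were brought together is not given in the sources used here. The mean of the 3 dka Group3 neurospheres and the mean of mmm neurospheres 1 to 3 differed with an SD of only 0.13 over all probe sets, against 0.56 for mmm neurosphere 4, and whether the neurosphere levels of the codes are independent measurements was not tested. Checked against their labels, the dka Group3 neurospheres averaged 5.28 to 5.55 and the Trp53 Cdkn2c neurospheres 10.27 to 10.45 over the granule progenitor markers. The arrays labelled Trp53 Cdkn2c neurospheres also read high for some markers of other cell types. Against them, 9 of 15 microglia and macrophage, 1 of 2 red blood cell and 2 of 7 mature neuron markers were called lower in dka Group3 neurospheres. The hemoglobin gene Hba-a1 read 4.53 to 4.98 in dka Group3 neurospheres and 8.92 to 10.46 in Trp53 Cdkn2c neurospheres. The macrophage gene Lyz2 read 3.05 to 4.12 in Group3 neurospheres and 7.64 to 8.22 in Trp53 Cdkn2c neurospheres, and the neuron gene Rbfox3 read 3.77 to 6.17 and 11.35 to 11.50 in the same order. The red cell gene Alas2 did not follow, at 3.79 to 3.93 in Group3 neurospheres and 3.65 to 3.78 in Trp53 Cdkn2c neurospheres. Whether Rbfox3 RNA came from other cells or from the labelled progenitors was not tested. The Hba-a1 and macrophage values go against the label of a neurosphere culture. All 3 arrays share these values, so no result against that group can be given without them. Myc averaged 7.99 in dka Group3 neurospheres and 8.43 in Trp53 Cdkn2c neurospheres (limma adjusted p = 0.61), while its paralog Mycn averaged 12.68 in Group3 neurospheres and 4.59 in Trp53 Cdkn2c neurospheres.

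**Figure D1:**
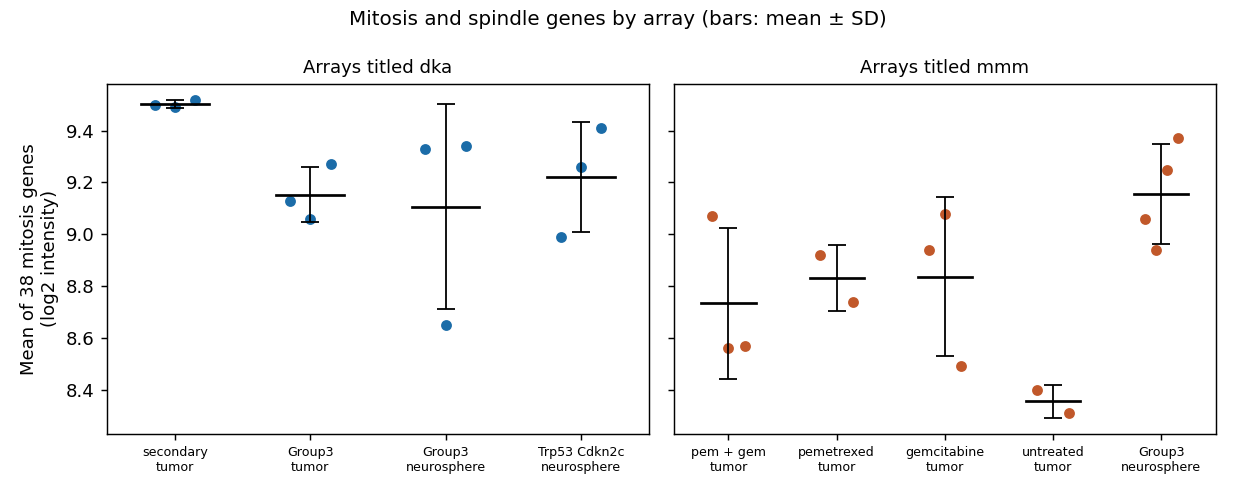
Mean log2 intensity of the 38 measured mitosis genes on each array (points), with the group mean ± SD as bars, for arrays titled dka (left) and mmm (right). The secondary tumors lie together at 9.49 to 9.52, and the untreated mmm tumors are lowest at 8.31 and 8.40.

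Averaged over the 38 members, the level was 9.49 to 9.52 in the 3 secondary tumors, 9.06 to 9.27 in the 3 Group3 tumors of code dka, 8.65 to 9.34 in dka Group3 neurospheres and 8.99 to 9.41 in Trp53 Cdkn2c neurospheres. Under code mmm it was 8.56 to 9.07 with both drugs, 8.74 and 8.92 with pemetrexed, 8.49 to 9.08 with gemcitabine, 8.31 and 8.40 in untreated tumors, and 8.94 to 9.37 in Group3 neurospheres. Several arrays stood apart from their own group on nearly every member. Group3 neurosphere 2 of code dka was below neurosphere 1 in 37 members and below neurosphere 3 in 35. Gemcitabine tumor 3 was below tumor 1 in 34 members and below tumor 2 in 36. With both drugs, tumor 1 was above tumor 2 in 37 members and above tumor 3 in all 38.

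The most members were called between untreated mmm tumors and the Group3 neurospheres of the same code. Of 38 members, 18 were lower in the untreated tumors and 0 were higher (limma, Benjamini-Hochberg adjusted p under 0.05 over all genes). That is 47.4% of the members lower, against 11.5% of all genes, with 10.6% of all genes higher and 22.1% called in either direction. The median difference was -0.75 over the members and -0.05 over all genes, and 36 of 38 members had a negative difference. The members' median was -0.85 to -0.67 when any 1 array of these groups was left out. Those arrays include neurosphere 4, whose values spanned 2.64 to 13.73, unlike the other mmm arrays. In 32 members every untreated tumor was below every neurosphere, as was so for 23.8% of all genes, and in 2 members every tumor was above every neurosphere (19.6% of all genes). The count rests on 2 untreated tumors: without tumor 1 it was 9 and without tumor 2 it was 7.

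Among the cyclins and regulators of CDK1, 4 of 6 members were lower, with a median of -0.85. Ccnb2 encodes cyclin B2, a partner of CDK1. It read 7.72 and 8.12 in untreated tumors, against 10.02, 10, 10.44 and 10.23 in neurospheres. The groups were far apart, averaging 7.92 ± 0.29 (SD, n = 2) in untreated tumors and 10.17 ± 0.21 (SD, n = 4) in neurospheres, which is -2.25 (SE 0.31, limma adjusted p = 5.5e-05) or a 4.76 times lower level.

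Ccna2, cyclin A2, which acts from S phase into early mitosis, read 8.88 and 8.83 in untreated tumors, against 10.17, 10.21, 10.59 and 10.88 in neurospheres. Both tumors were more than 1 unit below the lowest neurosphere, and the difference was -1.60 (SE 0.22, limma adjusted p = 5.8e-05). Cdk1 itself, the kinase, was lower by less, with averages of 10.50 in untreated tumors and 11.18 in neurospheres (difference -0.67, limma adjusted p = 0.027). Cdc25c, the phosphatase that activates CDK1, differed by -1.02 (adjusted p = 0.0079). Foxm1, the transcription factor for many of these genes, averaged 5.78 in untreated tumors and 6.35 in neurospheres with overlapping arrays (adjusted p = 0.14), and Melk, a kinase of proliferating cells, averaged 7.53 and 8.05 in the same order (adjusted p = 0.099).

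Of the central spindle and cytokinesis genes 5 of 7 were lower, with a median of -0.98. Ect2 is the exchange factor that activates RhoA at the cleavage site. Its values were 6.61 and 6.50 in untreated tumors, against 8.53, 8.40, 8.47 and 9.12 in neurospheres. The groups did not overlap, and the means of 6.56 ± 0.07 in tumors and 8.63 ± 0.33 in neurospheres (SD, n = 2 and 4) differed by -2.07 (SE 0.32, limma adjusted p = 0.00017).

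Kif23, the motor that forms the centralspindlin complex with the product of Racgap1, read 4.11 and 4.19 in untreated tumors, against 5.10, 5.95, 5.99 and 6.71 in neurospheres. Both tumors lay under their array's median, the only member there, and the difference was -1.79 (SE 0.33, limma adjusted p = 0.00068). Prc1, which bundles the midzone microtubules, differed by -1.16, Anln, the scaffold of the contractile ring, by -0.98, and Kif4, a chromosome-arm motor, by -0.92, all 3 lower (adjusted p = 0.0052, 0.00047 and 0.011). Racgap1 differed by -0.38 (adjusted p = 0.27) and Kif20a, a midzone motor, by -0.72 (adjusted p = 0.061), and neither passed.

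The chromosomal passenger complex corrects wrong attachments and signals to the midzone. Its kinase Aurkb differed by -1.29 (limma adjusted p = 0.0053), its scaffold Incenp by -0.83 (adjusted p = 0.013) and its survivin subunit Birc5 by -0.90 (adjusted p = 0.0057), so 3 of 4 subunits were lower. Cdca8, the borealin subunit, differed by -0.66 with an adjusted p of 0.21. Of the 5 kinases and spindle pole genes, Hmmr (-1.30), Tpx2 (-0.73) and Nek2 (-0.57) were lower, while Plk1 at -0.85 (adjusted p = 0.056) and Aurka at -0.40 (adjusted p = 0.32) did not pass. TPX2 carries Aurora A to the spindle, HMMR links microtubules at the pole, and NEK2 splits the centrosomes.

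None of the 4 spindle checkpoint genes passed. Bub1b, which encodes the checkpoint inhibitor BUBR1, read 9.88 and 9.89 in untreated tumors, against 9.66, 9.37, 9.65 and 9.26 in neurospheres, so both tumors were above all neurospheres (difference 0.40, limma adjusted p = 0.25). Bub1, its kinase relative, averaged 9.35 in untreated tumors and 9.55 in neurospheres and its arrays overlapped. Ttk, the kinase MPS1, at -0.80 and Mad2l1, which binds CDC20, at -0.53 had adjusted p-values of 0.058 and 0.079.

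Among centromere and kinetochore genes, Cenpf, a large corona protein, was lower by 1.17 on average (-1.17, limma adjusted p = 0.0028), and Cenpa, the centromeric histone, Cenpe, a kinetochore motor, Spc25 and Ndc80 did not pass. None of Kif11, Kif2c and Nusap1 passed among the motors and microtubule binders. At anaphase, Espl1, separase, differed by -0.88 (adjusted p = 0.0092) and Top2a, the topoisomerase that untangles sister chromatids, by -0.89 (adjusted p = 0.037). Ube2c, the enzyme that charges the anaphase promoting complex with ubiquitin, read 11.80 and 11.59 in untreated tumors, against 11.47, 11.54, 11.52 and 11.08 in neurospheres (difference 0.29, adjusted p = 0.32). Ube2c and Bub1b were the 2 members with a positive difference, and Cdc20 at -0.78 had an adjusted p of 0.12.

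**Figure D2:**
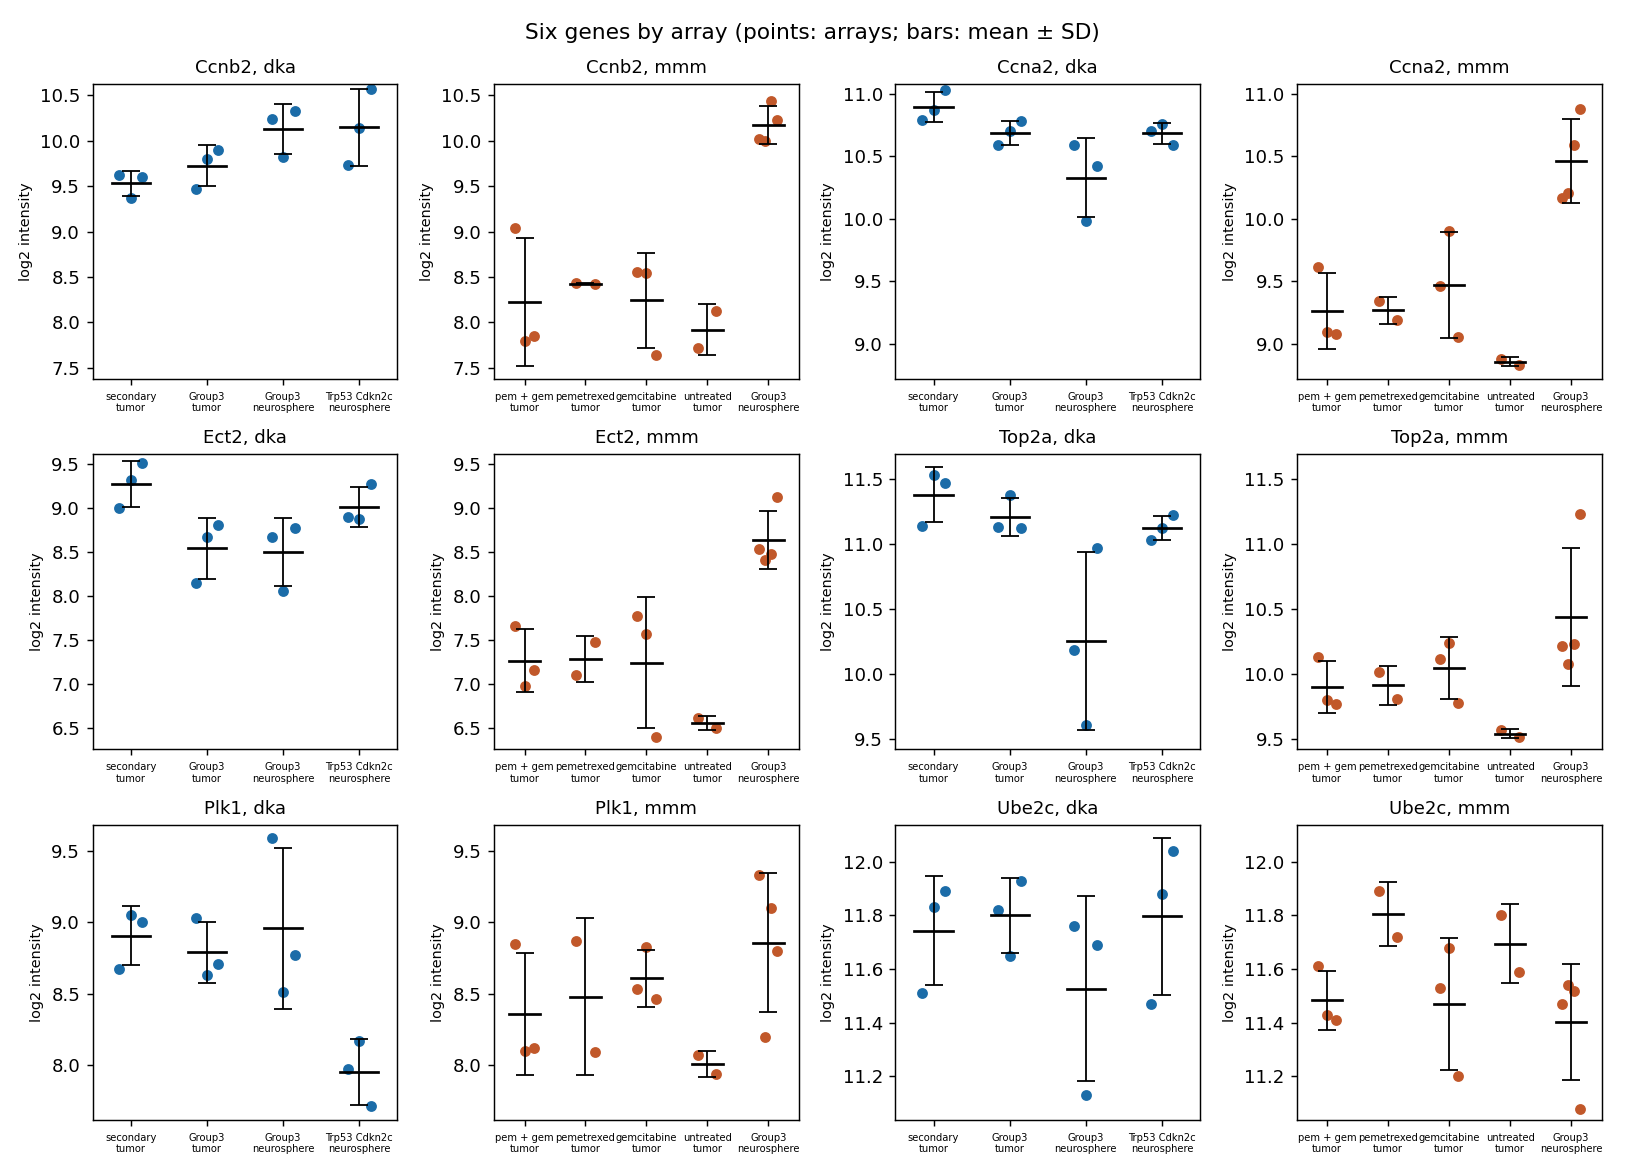
Log2 intensity of 6 mitosis genes on every array (points) with group mean ± SD (bars), each gene shown for code dka and for code mmm. Ccnb2 in the 2 untreated mmm tumors (7.72 and 8.12) lies below all 4 mmm neurospheres (10 to 10.44), with no such gap between dka tumors and neurospheres.

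These are bulk samples, in which fewer cells of a type and less RNA per cell cannot be told apart. Markers of other brain and immune cells were high in the untreated mmm tumors, and their part in the lower mitosis genes was not tested. Such markers were not all low in mmm neurospheres: the astrocyte gene Aldoc read 11.66 to 13.72 there, and the astrocyte gene Gfap 3.73 to 4.15. Which cells the marker RNA came from was not tested. All 15 microglia and macrophage markers were higher in untreated tumors than in neurospheres, with a median difference of 4.13, and their mean level was 7.79 and 7.88 in untreated tumors against 3.8 to 3.99 in neurospheres. Mature neuron markers averaged 8.75 and 8.66 in untreated tumors against 3.60 to 5.69 in neurospheres, and 5 of 7 passed. Oligodendrocyte markers averaged 8.97 and 7.30 against 3.98 to 4.87, with 5 of 6 higher, and astrocyte markers averaged 9.14 and 8.78 against 5.66 to 7.84, with 3 of 7 higher and 1 lower. Cdkn1a, an inhibitor of CDKs, averaged 8.27 in untreated tumors and 7.13 in neurospheres (adjusted p = 0.22).

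Genes of the neighbouring machinery moved in part with the members. Of 38 other spindle and cytokinesis genes, 16 were lower in untreated tumors and 0 higher (median -0.73), among them Aspm, a spindle pole protein, at -1.40, Plk4, the kinase of centriole duplication, at -1.36, and Kif18b, a microtubule-depolymerizing motor, at -1.29. Of 34 other kinetochore and checkpoint genes, 10 were lower and 1 higher (median -0.56), with Hjurp, the chaperone that loads CENP-A, at -2.94, Zwilch at -1.98 and Cenpm at -1.90. Of 18 condensin and cohesin genes 8 were lower (median -0.59), and Smc4, a core condensin subunit, differed by -1.85. Of 36 genes of G1/S and DNA replication 9 were lower and 1 higher (median -0.47). Among 13 genes of the anaphase promoting complex 3 were lower (median -0.27), and among 15 genes of DREAM and MuvB 1 was lower (E2f5, -1.23) with a median of -0.02. Mki67, the antigen of the Ki-67 stain, averaged 9.94 in untreated tumors and 10.84 in neurospheres (-0.90, limma adjusted p = 0.046).

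In the dka tumors the same comparison gave another picture. Of 38 members, 3 were higher in Group3 tumors than in dka Group3 neurospheres and 2 were lower, with a median of 0.04 over the members and 0 over all genes, and 8.81% of all genes were higher and 9.74% lower (18.6% in all). The members' share called was thus near that of all genes, and their median was -0.20 without neurosphere 2. Leaving out 1 array changed the count to 1 without tumor 2, to 2 without neurosphere 2, and to 3 without tumor 1, neurosphere 1 or neurosphere 3.

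Top2a read 11.13, 11.38 and 11.12 in dka tumors, against 10.19, 9.61 and 10.97 in neurospheres. All tumors were above all neurospheres, though neurosphere 3 came close, and the difference was 0.95 (SE 0.28, limma adjusted p = 0.022). The call was lost without tumor 2 (adjusted p = 0.077), without neurosphere 1 (adjusted p = 0.061), without neurosphere 2 (adjusted p = 0.15) or when a gene's probe sets were averaged (adjusted p = 0.11).

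Espl1 followed the same order, with 8.94, 8.90 and 8.79 in dka tumors against 8.41, 7.95 and 8.21 in neurospheres. The groups did not overlap and differed by 0.69 (SE 0.22, limma adjusted p = 0.031), a call that was lost in 4 of the 6 fits that left out 1 array (highest adjusted p = 0.14). Racgap1, the GTPase-activating partner in centralspindlin, averaged 9.66 in tumors and 8.98 in neurospheres (0.68, adjusted p = 0.036).

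Anln went the other way. It read 9.14, 9.04 and 9.11 in dka tumors, against 9.85, 9.55 and 10.20 in neurospheres, so every tumor was lower, and the difference was -0.77 (SE 0.16, limma adjusted p = 0.0022). With a gene's probe sets averaged it was -0.45 and the call was lost (adjusted p = 0.071). Nusap1, which bundles spindle microtubules, read 8.98, 8.94 and 9.55 in tumors, against 9.95, 9.33 and 10.30 in neurospheres. Those arrays overlapped, and its difference of -0.70 (SE 0.24, limma adjusted p = 0.047) was lost in 7 of 12 alternative fits (highest adjusted p = 0.36).

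Of the cell type markers, 10 of 15 for microglia, 9 of 10 for endothelium, 7 of 8 for fibroblasts and pericytes, 4 of 7 for neurons and 2 of 6 for oligodendrocytes were higher in dka tumors than in neurospheres, while 0 of 7 astrocyte markers were higher and 2 were lower. Their part in the mitosis gene values was not tested. In dka tumors the mean level was 5.87 to 6.39 for microglia markers, against 3.78 to 3.95 in dka neurospheres. For neuron markers it was 6.56 to 7.14 in dka tumors, against 4.14 to 5.10. These tumor levels read below those of the untreated mmm tumors, but whether the codes are on a common scale was not tested. Of the genes of G1/S and DNA replication 13 of 36 were higher and 0 lower (median 0.64), led by the transcription factors E2f1 (2.02) and E2f2 (1.79) and by the dUTPase gene Dut (1.36). In the DREAM and MuvB list Mybl2, which encodes B-MYB, was higher by 1.55 (limma adjusted p = 0.00076), and Rbl2 and Rbl1, the p130 and p107 pocket proteins, were lower (-1.29 and -1.0).

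**Figure D3:**
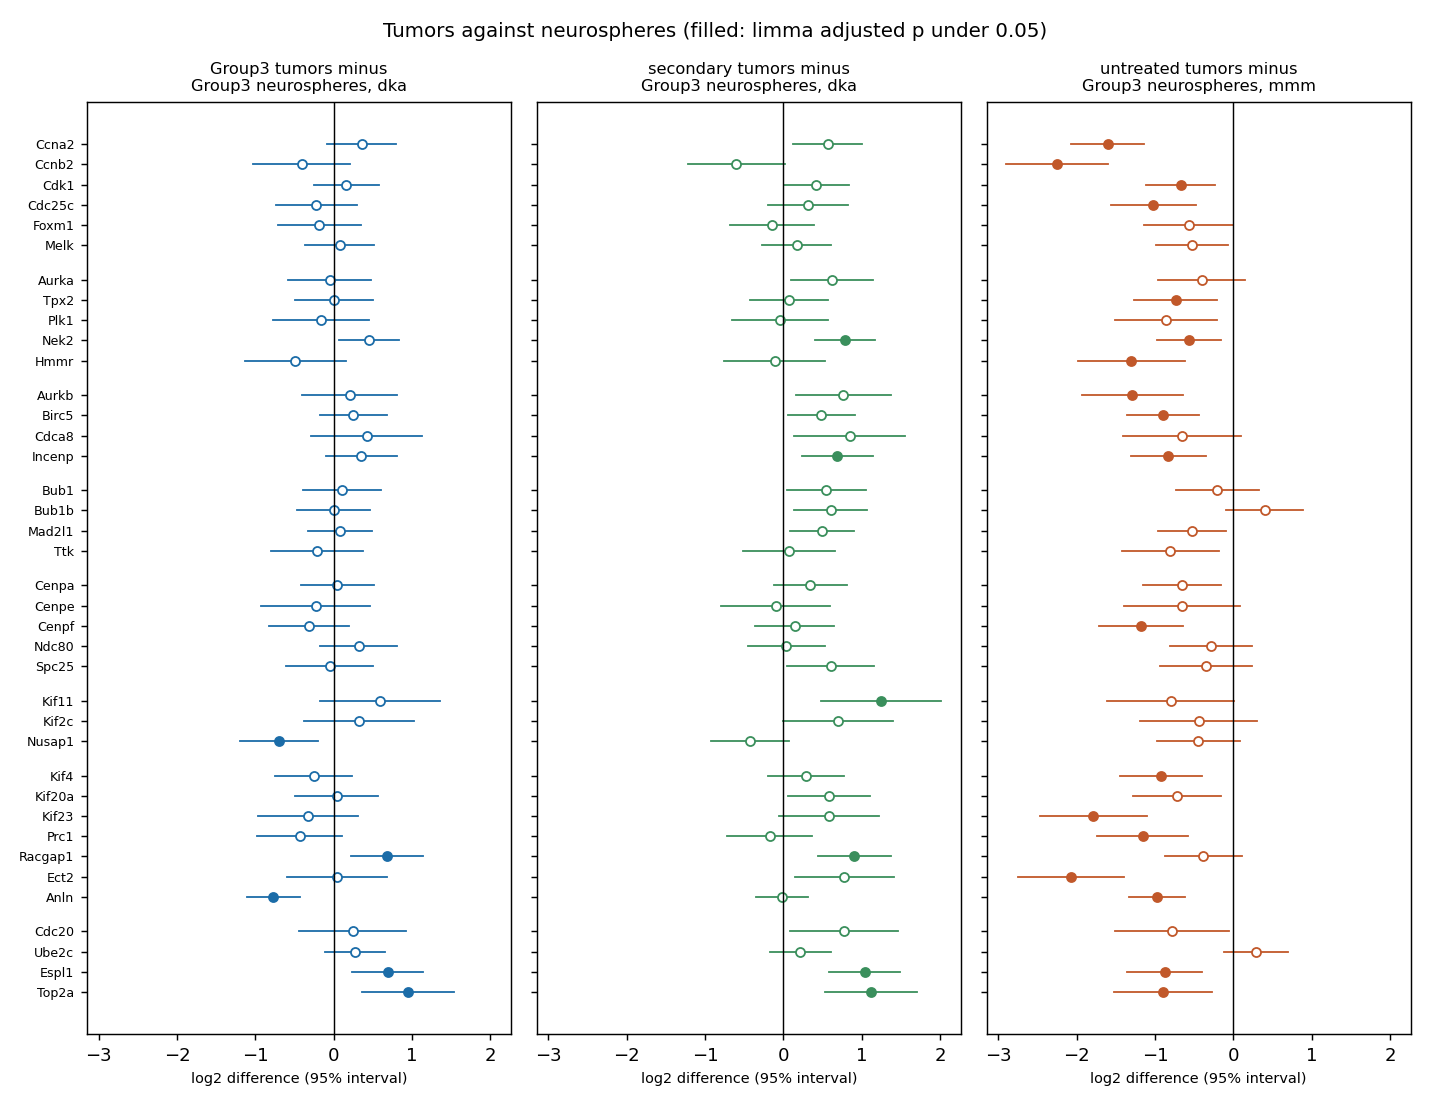
Log2 difference with its 95% interval for each of the 38 mitosis genes, for the tumor groups against Group3 neurospheres of the same code. Filled points passed an adjusted p under 0.05: 18 genes, all lower, in untreated mmm tumors, 5 in dka tumors and 6, all higher, in secondary tumors.

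The difference between the codes was tested directly, as the mmm difference minus the dka difference. This test takes the neurosphere groups of the 2 codes as independent and the codes as on a common scale, and neither was tested. The difference was negative for 11 of 38 members past the threshold and positive for 0, with 4.8% of all genes called lower and 4.36% higher. Its median was -0.76 over the members and -0.03 over all genes. For Ect2 the difference from neurospheres was -2.07 in mmm tumors and 0.04 in dka tumors, and these differed by -2.12 (SE 0.44, limma adjusted p = 0.0083). For Ccna2 the mmm value was -1.60 and the dka value 0.36 (-1.96, adjusted p = 0.0017). For Top2a they were -0.89 and 0.95 (-1.84, adjusted p = 0.011), and for Ccnb2 -2.25 and -0.41 (-1.84, adjusted p = 0.014). Top2a and Espl1 were thus called in opposite directions in the 2 codes.

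The untreated tumors of the 2 codes differ in whatever the codes stand for, and code and tumor set cannot be told apart. The number of members that differed between codes was 3 without untreated mmm tumor 1, 4 without untreated mmm tumor 2, 5 without dka neurosphere 2 and 7 without dka tumor 2.

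Secondary tumors had the highest mitosis gene levels of the dka arrays. Compared with dka Group3 neurospheres, 6 of 38 members were higher and 0 lower, against 10.2% of all genes higher and 14.5% lower (24.6% in all), and the median was 0.49 over the members and -0.01 over all genes. When 1 array was left out, the count ran from 4 to 12 (12 without dka neurosphere 1), and the members' median from 0.23 to 0.575. With array weights the count was 15, of which 13 were higher and 2 lower. Under those weights 14.9% of all genes were higher and 18.1% lower. In 17 members every secondary tumor was above every neurosphere (17.6% of all genes), and in 1 member every one was below (21.5%). Microglia markers were also high in secondary tumors, with 12 of 15 above the neurospheres past the threshold, and their part was not tested.

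Kif11 encodes Eg5, the motor that pushes the spindle poles apart. It read 9.15, 8.64 and 8.64 in secondary tumors, against 8.0, 7.02 and 7.67 in neurospheres. The groups did not overlap and differed by 1.25 (SE 0.37, limma adjusted p = 0.016), a call lost without neurosphere 2 (adjusted p = 0.095) or secondary tumor 1 (adjusted p = 0.071). Top2a read 11.14, 11.53 and 11.47 in secondary tumors, against 10.19, 9.61 and 10.97 in neurospheres, 1.12 higher on average (SE 0.28, adjusted p = 0.0059).

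Espl1 read 9.44, 9.18 and 9.06 in secondary tumors, against 8.41, 7.95 and 8.21 in neurospheres. It had the lowest p of the set here (1.03, SE 0.22, limma adjusted p = 0.0015). Racgap1 read 10.31, 9.77 and 9.58 in secondary tumors, against 9.17, 8.61 and 9.16 in neurospheres (0.91, SE 0.22, adjusted p = 0.0049). For both genes every tumor lay above every neurosphere, and Top2a, Espl1 and Racgap1 passed in all 12 alternative fits. Nek2 (0.79, adjusted p = 0.0033) and Incenp (0.69, adjusted p = 0.024, with overlapping arrays) were the other members called. Of 36 replication genes 19 were higher and 0 lower (median 0.79), and 7 of 34 other kinetochore genes were higher and 2 lower.

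Set against the dka Group3 tumors, secondary tumors had 35 of 38 members with a positive difference, and the median was 0.35 over the members and -0.05 over all genes. Only Anln passed, with 0.263% of all genes higher and 0.275% lower (0.538% in all), and 9 members had an unadjusted p under 0.05. In 20 members every secondary tumor was above every Group3 tumor, as was so for 7.66% of all genes. Anln read 9.74, 9.87 and 9.93 in secondary tumors, against 9.14, 9.04 and 9.11 in Group3 tumors. The gap was wide beside the spread of each group (0.75, SE 0.16, limma adjusted p = 0.036), but the call was lost in 8 of 12 alternative fits, with a highest adjusted p of 0.14, among them those without Group3 tumor 2 or 3 or any of the secondary tumors.

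Kif23 had the largest difference, with 6.74, 6.02 and 6.35 in secondary tumors against 5.15, 5.18 and 6.04 in Group3 tumors. One secondary tumor at 6.02 lay below the highest Group3 tumor, and the difference of 0.91 (SE 0.31) had a limma adjusted p of 0.21. Knl1, a kinetochore scaffold outside the member list, was the only gene called in the neighbouring lists (1.13, adjusted p = 0.031). Oligodendrocyte and astrocyte markers were at median differences of -1.58 and -1.26 in secondary tumors, with no gene of either list past the threshold. Microglia markers had a median difference of 0.55. Their part in the mitosis values was not tested.

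Between Group3 neurospheres and Trp53 Cdkn2c neurospheres 2 of 38 members were higher and 4 lower, against 13.4% of all genes higher and 9.22% lower (22.6% in all), with a median of -0.08 over the members and 0.08 over all genes. The members were thus called no more often than genes at large, and their median was 0.13 without Group3 neurosphere 2 and 0.01 without Trp53 Cdkn2c neurosphere 3. The arrays labelled Trp53 Cdkn2c neurospheres carry the high Hba-a1, macrophage and Rbfox3 values given above, whose part in these values was not tested. The count was 3 without Trp53 Cdkn2c neurosphere 2 and 2 without Trp53 Cdkn2c neurosphere 3.

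Plk1, the Polo kinase of mitotic entry and exit, read 9.59, 8.51 and 8.77 in Group3 neurospheres, against 7.97, 8.17 and 7.71 in Trp53 Cdkn2c neurospheres. The groups did not overlap, and the level was 2.01 times higher (difference 1.01, SE 0.29, limma adjusted p = 0.017). The call was lost without Group3 neurosphere 1 (adjusted p = 0.12) or Trp53 Cdkn2c neurosphere 3 (adjusted p = 0.071).

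Anln read 9.85, 9.55 and 10.20 in Group3 neurospheres, against 8.91, 9.24 and 9.35 in Trp53 Cdkn2c neurospheres (0.70, SE 0.16, limma adjusted p = 0.0034). Nek2 read 8.57, 8.20 and 8.47 in Group3 neurospheres, against 9.04, 9.27 and 9.32 in Trp53 Cdkn2c neurospheres (-0.80, SE 0.18, adjusted p = 0.0033). Neither gene overlapped between the groups, and both passed in all 12 alternative fits.

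Top2a read 10.19, 9.61 and 10.97 in Group3 neurospheres, against 11.03, 11.12 and 11.22 in Trp53 Cdkn2c neurospheres. Its 3 Group3 values were wide apart (SD 0.68), and the difference of -0.87 (SE 0.28, limma adjusted p = 0.031) was lost in 6 of 12 alternative fits, with a highest adjusted p of 0.24. Espl1 (-0.69, adjusted p = 0.025) and Incenp (-0.65, adjusted p = 0.035) were lower as well. Replication genes were lower together with them, 11 of 36 with 0 higher (median -0.52), led by E2f1 (-1.98), and 5 of 18 condensin and cohesin genes were lower, among them Ncapd2 (-1.07) and Smc2 (-0.86). Of 15 microglia markers 9 were lower in Group3 neurospheres.

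Between dka Group3 tumors and the arrays labelled Trp53 Cdkn2c neurospheres no member passed, while 9.15% of all genes were higher and 6.45% lower (15.6% in all), and 5 members had an unadjusted p under 0.05. The median was 0 over the members and 0.08 over all genes. Plk1 read 9.03, 8.63 and 8.71 in tumors, against 7.97, 8.17 and 7.71 in Trp53 Cdkn2c neurospheres (0.84, SE 0.29, limma adjusted p = 0.059). Every tumor was above every neurosphere, which among all genes held for 22.1%, and Plk1 passed where dim genes were left out (adjusted p = 0.045). Cenpf read 9.77, 9.29 and 9.73 in tumors, against 9.84, 10.46 and 10.50 in Trp53 Cdkn2c neurospheres (-0.67, SE 0.24, adjusted p = 0.069), and it passed without Trp53 Cdkn2c neurosphere 1 (adjusted p = 0.030) and with only the dka arrays in the fit (adjusted p = 0.039).

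The question of the drug arrays was what pemetrexed and gemcitabine, alone and together, did to Group3 tumors. No mitosis gene was called under any of the treatments, and none was lower in all of them. The 3 comparisons share the same 2 untreated tumors, so their directions are not independent of each other: those tumors had the lowest member averages of all 26 arrays, at 8.31 and 8.40.

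With pemetrexed and gemcitabine together, 34 of 38 members had a positive difference from untreated tumors (range -0.21 to 1.23), with a median of 0.39 over the members and 0.03 over all genes. Called genes were 0.0526% of all genes higher and 0.0234% lower (0.076% in all), 13 genes. In 25 members every treated tumor was above both untreated tumors, as was so for 22.2% of all genes, and 4 members had an unadjusted p under 0.05. Kif23 read 5.59, 5.13 and 5.41 with both drugs, against 4.11 and 4.19 in untreated tumors. The treated tumors were all higher, with a difference of 1.23 (SE 0.34, 95% interval 0.51 to 1.95), but the limma adjusted p was 0.31. Cdk1 read 11.34, 10.87 and 11.01 with both drugs, against 10.64 and 10.37 in untreated tumors (0.57, SE 0.22, adjusted p = 0.56).

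With pemetrexed alone all 38 members had a positive difference (range 0.11 to 1.05), with a median of 0.50 over the members and 0.05 over all genes. No gene of the 17097 was called (0%), while 6 members and 807 genes had an unadjusted p under 0.05. In 34 members both treated tumors were above both untreated tumors, against 30.3% of all genes, and in 0 members were they below (20.3% of all genes). Mad2l1 read 10.68 and 10.49 with pemetrexed, against 9.77 and 9.95 in untreated tumors (0.72, SE 0.24, 95% interval 0.22 to 1.23, limma adjusted p = 0.9993). Kif23 read 5.07 and 5.34 with pemetrexed, against 4.11 and 4.19 in untreated tumors (1.05, SE 0.38, adjusted p = 0.9999). Neither gene overlapped between the groups.

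With gemcitabine alone 34 of 38 members had a positive difference (range -0.32 to 0.94), with a median of 0.55 over the members and 0.05 over all genes. No gene was called (0%), while 18 members and 1472 genes had an unadjusted p under 0.05. In 21 members every treated tumor was above both untreated tumors, against 20.4% of all genes, and in 0 members were they below (9.38% of all genes). Espl1 read 8.14, 8.49 and 7.96 with gemcitabine, against 7.52 and 7.34 in untreated tumors (0.77, SE 0.24, 95% interval 0.27 to 1.28, limma adjusted p = 0.43). Cdc25c read 6.89, 7.13 and 6.79 with gemcitabine, against 5.92 and 6.22 in untreated tumors (0.87, SE 0.27, adjusted p = 0.43). Both genes were higher in all 3 treated tumors.

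The gemcitabine result depended on how the arrays were weighted. With array weights, which gave gemcitabine tumor 1 a weight of 5.07 and tumor 3 a weight of 0.28, 30 of 38 members passed, all higher, and 12.4% of all genes were called higher and 10.5% lower. Under the same weights 3 members passed with pemetrexed, with 0.462% of all genes higher and 0.714% lower, and 1 member passed with both drugs, near the all-gene share of 1.51% higher and 1.54% lower.

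**Figure D4:**
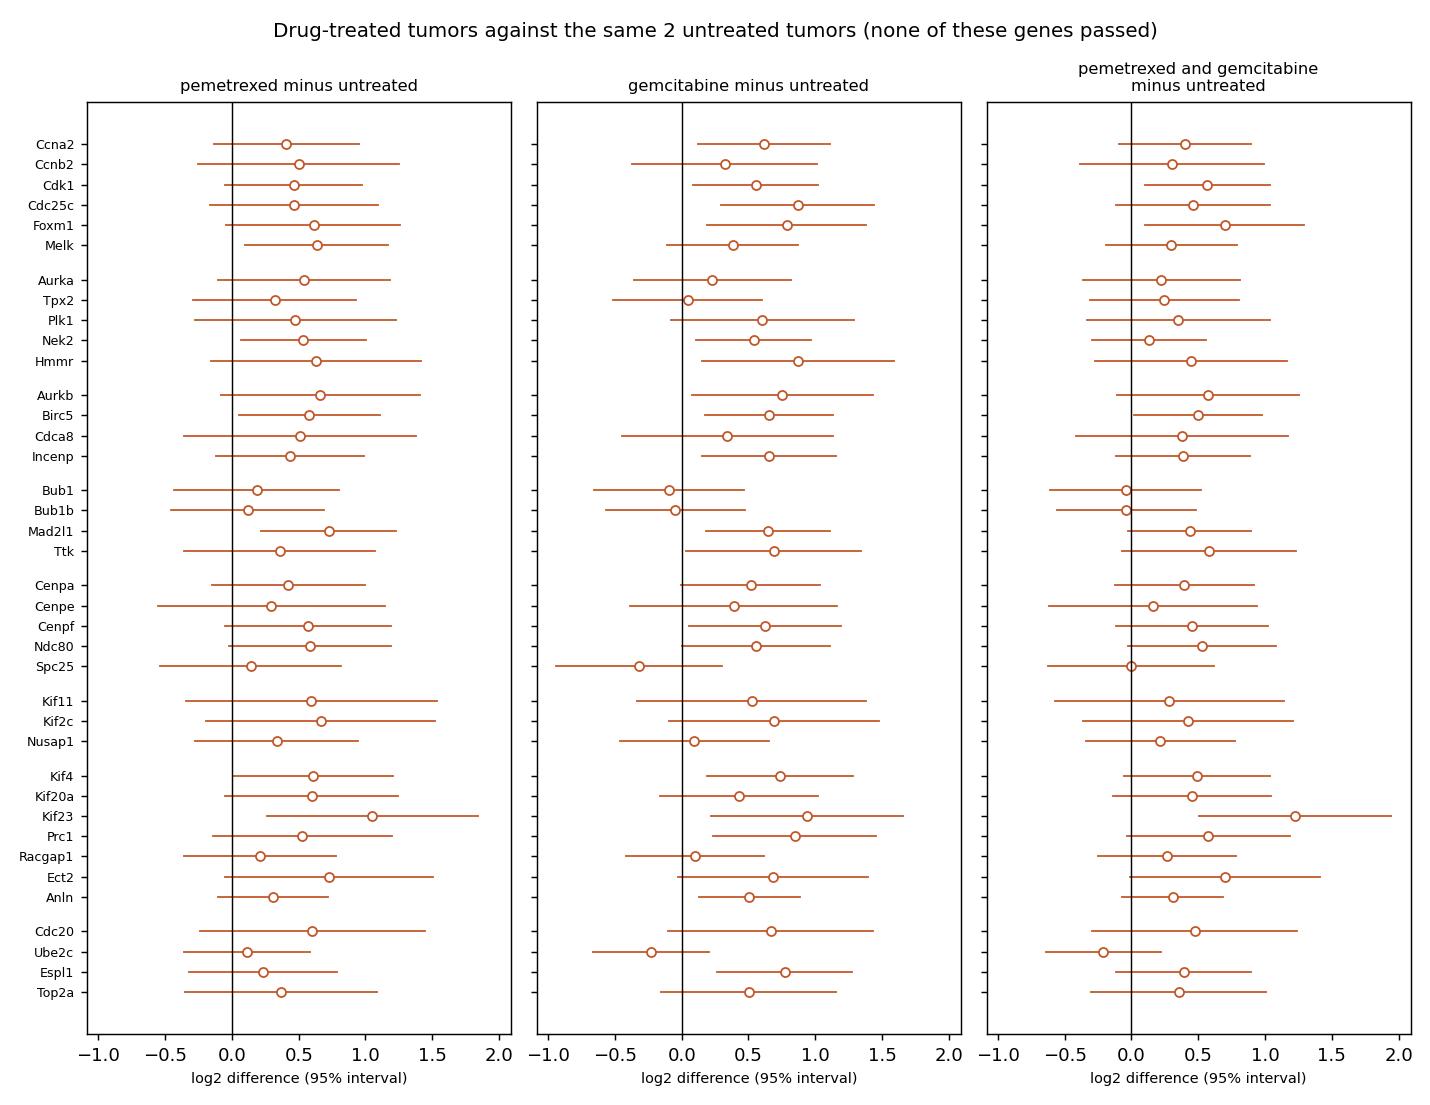
Log2 difference with its 95% interval for each of the 38 mitosis genes in tumors treated with pemetrexed, gemcitabine or both, each against the same 2 untreated tumors. Most points lie right of 0 (38, 34 and 34 of 38), and none passed an adjusted p under 0.05.

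Neuron, oligodendrocyte and astrocyte markers ran opposite to the mitosis genes within each treated group, and their part in these values was not tested. The 7 measured neuron markers averaged 6.87, 8.25 and 7.54 with both drugs, 7.45 and 8.09 with pemetrexed, and 7.25, 6.32 and 8.99 with gemcitabine, against 8.75 and 8.66 in untreated tumors. Gemcitabine tumor 3, with the highest neuron level of these 10 tumors (8.99), had a low mitosis gene average (8.49), and gemcitabine tumor 2, with the lowest neuron level (6.32), had the highest mitosis average (9.08). Among tumors given both drugs, tumor 1 had the lowest neuron level (6.87) and the highest mitosis average (9.07). Oligodendrocyte markers averaged 5.30, 7.87 and 6.81 with both drugs, 6.41 and 7.06 with pemetrexed and 6.43, 5.31 and 8.63 with gemcitabine, against 8.97 and 7.30 in untreated tumors, and astrocyte markers ran 7.42 to 8.85, 7.77 and 8.74, and 6.68 to 9.51 in the same groups, against 9.14 and 8.78. Microglia markers stayed between 6.81 and 8.16 in treated tumors, against 7.79 and 7.88 in untreated tumors. With both drugs they averaged 7.43, 8.06 and 6.81 and did not run opposite to the mitosis averages of 9.07, 8.56 and 8.57.

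**Figure D5:**
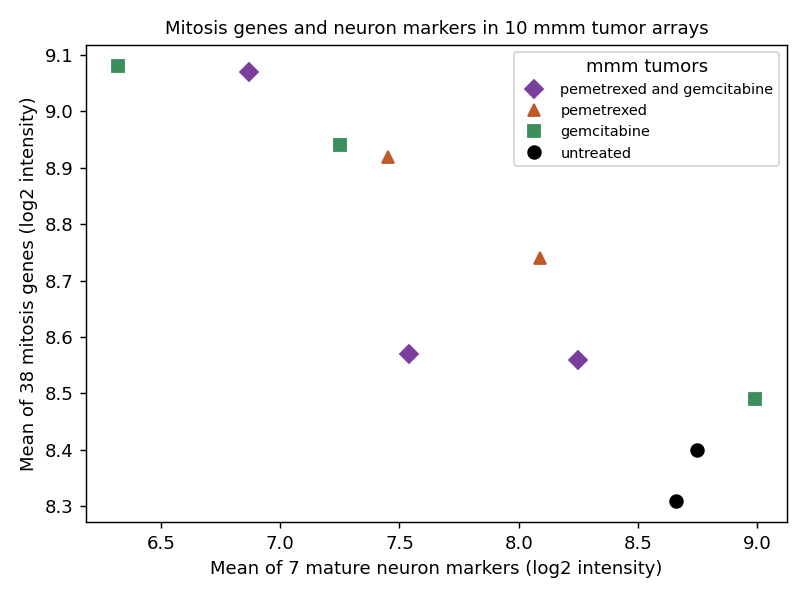
Mean log2 intensity of the 38 mitosis genes (vertical) against the mean of 7 mature neuron markers (horizontal) in the 10 mmm tumor arrays, by treatment. Within each treated group a higher neuron level goes with a lower mitosis gene level, which is not so for the 2 untreated tumors. With both drugs, tumors 2 and 3 are nearly level in mitosis genes (8.56 and 8.57), and pemetrexed has 2 arrays. Gemcitabine tumors 2 and 3 lie at opposite ends (6.32 and 9.08, 8.99 and 8.49).

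No member passed between the combination and either drug alone. Against gemcitabine, 26 of 38 members had a negative difference with a median of -0.13 (-0.03 over all genes, and 0.01 for the members without gemcitabine tumor 2), no gene of the array was called (0%), and 1 member had an unadjusted p under 0.05. The arrays of the 2 groups were apart in 0 members, against 4.42% of all genes with the combination higher and 6.57% lower. The member with that p, Nek2, read 8.54, 8.0 and 7.61 with both drugs, against 8.42, 8.45 and 8.5 with gemcitabine (-0.41, 95% interval -0.79 to -0.03, limma adjusted p = 0.93). The tumors given both drugs were scattered and overlapped the others. Espl1 read 8.17, 7.74 and 7.54 with both drugs, against 8.14, 8.49 and 7.96 with gemcitabine (-0.38, 95% interval -0.83 to 0.07, adjusted p = 0.9999).

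Against pemetrexed, 30 of 38 members had a negative difference with a median of -0.12 (-0.02 over all genes), no gene was called (0%), and 0 members had an unadjusted p under 0.05. Nek2 read 8.54, 8.0 and 7.61 with both drugs, against 8.49 and 8.41 with pemetrexed (-0.40, 95% interval -0.83 to 0.03, limma adjusted p = 1). Ube2c read 11.61, 11.43 and 11.41 with both drugs, against 11.89 and 11.72 with pemetrexed (-0.32, 95% interval -0.76 to 0.11, adjusted p = 1). All 3 Ube2c values were below both pemetrexed values. Such a gap was found in 2 of 38 members, against 10.4% of all genes, and the reverse in 1 member, against 8.31%.

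Neighbouring cell cycle lists had the same sign under the drugs, with no gene called. With both drugs, pemetrexed and gemcitabine in turn, the median was 0.45, 0.47 and 0.51 for other kinetochore genes, 0.33, 0.46 and 0.47 for other spindle genes, and 0.45, 0.43 and 0.36 for replication genes. CDK inhibitor and cell cycle exit genes had medians of 0.04, -0.01 and -0.10. Cdkn1a averaged 8.24 with both drugs, 9.22 with pemetrexed and 8.40 with gemcitabine, against 8.27 in untreated tumors, and Mki67 averaged 10.70, 10.50 and 10.58, against 9.94; neither gene passed in any of the 3 comparisons.

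Other probe sets gave the members a second reading. For 21 members there were 32 further probe sets, and 30 of the 32 had the same sign as the brightest one in untreated mmm tumors against neurospheres. Of the 19 that belonged to members called there, 18 had the same sign and 8 also passed. The 1 exception was a probe set of Tpx2 (0.37, adjusted p = 0.29 over all probe sets, against -0.73 for its brightest). A probe set of Racgap1 that was not the brightest passed (-1.08, adjusted p = 0.0044), as did 2 dimmer probe sets of Foxm1 (-1.28 and -1.01, adjusted p = 0.025 and 0.015), 2 genes whose brightest probe set did not.

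The drug comparisons called few or no genes of the array. How many of all genes passed in no comparison was not counted, so the members' share has nothing beside it. Over the 11 comparisons within a code, 16 of the 38 measured members passed in none. They include all 4 spindle checkpoint genes and the kinase Aurka, the kinetochore genes Cenpa, Cenpe, Ndc80 and Spc25, Cdc20, the activator of the anaphase promoting complex, and Ube2c, its ubiquitin-conjugating enzyme, Foxm1, Melk, Cdca8, Kif2c, a microtubule-depolymerizing motor, and Kif20a.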

How the data were processed

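The deposited log2 intensities were taken unchanged. RMA (version not given) and Partek 6.6 made them, per the submitters' processing notes, and per the labels' protocols RNA was extracted with Trizol, amplified with NuGEN Ovation Pico WTA V2 and labelled with NuGEN Encore Biotin for HT MG-430 PM arrays. Of 45141 probe sets, 28898 had 1 gene symbol in the platform annotation, 551 had several and 15692 none. The brightest probe set was taken for each of 17097 genes. One limma 3.58.1 fit (R 4.3.3) over 26 arrays had a mean for each of 9 combinations of group and title code, with eBayes variances, and calls were made at a Benjamini-Hochberg adjusted p under 0.05 across the genes. SE and intervals are limma's moderated ones, and members, lists and printed promoters were chosen with earlier results of these data known. For each comparison the 4 called members with the largest difference are given in full, or the 2 with the lowest p where fewer than 2 were called. The method was tested on simulated data. Alternatives were averaged probe sets, no genes with a mean below 5, quantile normalization, a trended robust variance, array weights, the arrays of 1 code only, and leaving out each array. Replicate numbers follow deposit order and pair nothing. The number of arrays limits precision. Figures used Python 3.11.15 and matplotlib 3.10.9. Trp53 and some other genes were not analysed here.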

Additional observations from a re-analysis of the deposited data

Results flagged for a closer look

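In the 4 mmm Group3 neurospheres, replicate 4 stood apart from the other 3 for 2 members. Ube2c read 11.08 there, against 11.47 to 11.54 in the others (gap over range 0.834), and Top2a read 11.23, against 10.08 to 10.23 (0.869). Chance alone marks about 1 in 20 genes in such a group, and every measured member was put to this rule. If the 4 arrays are otherwise alike, about as many marks as the 2 found can arise by chance alone. Replicate 4 also differed over all probe sets. Its SD from the mean of the dka Group3 neurospheres was 0.56, against 0.13 for the mean of replicates 1 to 3. Neither gene is singled out by the marks, and why replicate 4 differed was not tested. The share of all genes marked is not given here, and no other group had 4 or more arrays.

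For 11 members the difference between tumors and Group3 neurospheres itself differed between the title codes, by the test of that difference over all genes. The p-values take the neurosphere groups of the 2 codes as independent and the codes as on a common scale, and neither was tested. The mmm value was below the dka value by 2.12 for Ect2 (-2.12, limma adjusted p = 0.0083), and the difference was -1.96 for Ccna2 (0.0017), -1.84 for Ccnb2 (0.014) and -1.84 for Top2a (0.011). It was -1.57 for Espl1 (0.0073), -1.49 for Aurkb (0.035), -1.46 for Kif23 (0.047) and -1.18 for Incenp (0.026). It was -1.15 for Birc5 (0.024), -1.07 for Racgap1 (0.044) and -1.01 for Nek2 (0.025). In dka tumors 9 of these genes had a positive difference from neurospheres and Ccnb2 and Kif23 a negative one, and in untreated mmm tumors all 11 had a negative one.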

How the results depend on the processing

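No difference of a member given in full changed sign under any alternative tried, but medians near 0 did. Only the members given in full were checked in this way. The members' median was -0.20 to 0.18 for dka tumors against Group3 neurospheres, -0.23 to 0.13 for Group3 against Trp53 Cdkn2c neurospheres and -0.29 to 0.01 for both drugs against gemcitabine when 1 array was left out, and -0.002 for dka tumors against Group3 neurospheres with array weights. Of the values for single members under these alternatives, 372 kept their side of the threshold, 37 lost it and 9 gained it. Numbers of members called that moved by over 1.5 times were, for dka tumors against Group3 neurospheres, 1 with averaged probe sets and 3 with only dka arrays. For dka tumors against Trp53 Cdkn2c neurospheres they were at most 2 under any alternative, with 1 without dim genes and 1 with only dka arrays. For secondary tumors against Group3 tumors the number was 0 after quantile normalization and 0 with only dka arrays. With array weights it was 15 for secondary tumors against neurospheres, 3 for pemetrexed, 30 for gemcitabine and 1 for both drugs. The cause was not tested. Leaving out 1 array gave 2 to 5 for Group3 against Trp53 Cdkn2c neurospheres, 1 to 4 for dka tumors against Group3 neurospheres, 0 to 1 against Trp53 Cdkn2c neurospheres, 0 to 1 for secondary against Group3 tumors, 4 to 12 for secondary tumors against neurospheres, 7 to 21 for untreated mmm tumors, 0 to 0 for the 5 drug comparisons and 3 to 12 for the difference between codes. Groups of 2 or 3 arrays, and 2 untreated tumors behind every drug comparison, limit what could be called. No paired analysis was possible because replicate numbers follow deposit order only.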
